A study of Mus musculus with 2 samples.

Results

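The 10 glycolysis genes described here are Slc2a1, Hk1, Hk2, Pfkp, Aldoa, Gapdh, Pgk1, Eno1, Pkm and Ldha, picked by gene symbol from the 32285 genes of the count tables. All 10 were present, on 11 rows of the table, because 2 rows carry the symbol Aldoa and were summed. The cells come from GL261, an established mouse glioma line of C57BL/6 origin that the labels class as astrocytoma. One culture grew attached to the flask in DMEM, with FBS at 10% and penicillin-streptomycin at 1%, and was collected at about 80% confluency (adherent cells). The other grew as free-floating spheres for 12 days in the same medium with added epidermal growth factor at 20 ng/ml, fibroblast growth factor at 20 ng/ml and B-27 at 1:50 (neurosphere cells). By the labels, both cultures were trypsinized and frozen before single-cell RNA sequencing with the 10x Genomics 3′ protocol. Neurospheres were also broken up by pipetting, the only dissociation that the study's methods name for them. Serum was present in both cultures, and growth form, added factors, days in culture, handling and library cannot be told apart.

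Each culture is 1 library, so there was no replicate error to set a difference against and no test was run. Every interval below is an exact 95% interval that covers counting error only, and every fold is a difference between these 2 libraries. UMIs are counts of distinct captured RNA molecules. After the cell filter, 5051 adherent and 4276 neurosphere cells remained, with 46290996 and 64943938 UMIs and medians of 8260 and 13199 UMIs per cell. Mitochondrial and ribosomal genes had been removed first, and they held 2.10% and 29.6% of the kept adherent cells' UMIs against 3.93% and 16.5% in neurosphere cells. Of the 15 glial markers examined, 13 had UMIs in each culture, with Vim, Sox2, Olig1 and S100b among them, while Gfap had 30 and 27 UMIs and Aqp4 and Sox9 had none. The immune list summed to 12.8 and 5.77 UMIs per 1000000, nearly all of it Cd68 (485 and 276 UMIs) and Cx3cr1 (103 and 96 UMIs). The other 6 immune genes had 3 UMIs or fewer per culture, with Ptprc, C1qa and Tyrobp at 1 UMI or less. The libraries shared 12 cell barcodes before the filter and 9 after it.

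Glycolysis splits glucose into pyruvate in the cytosol, with a small yield of ATP that needs no oxygen. Glucose enters through transporters, is trapped by hexokinase, committed by phosphofructokinase, split by aldolase, and then oxidized and drained of its energy in the lower steps, after which lactate dehydrogenase turns pyruvate into lactate and restores NAD+. Tumour cells, gliomas included, are known for running this pathway to lactate even where oxygen is present, and many of its genes are targets of the hypoxia-inducible factor HIF1 and of MYC.

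The starts of 5 of the genes are shown because these 5 span the range of the results, from Slc2a1, the one gene higher in neurosphere cells under every scaling tried, and Pgk1, which was nearly level, to Pfkp, Gapdh and Ldha, the 3 with the largest differences. The sequences are RefSeq promoter windows (build GRCm38.p6), each with 250 bases before and 50 bases from the transcription start, read in the gene's own direction. Capitals mark ACGTG or GCGTG, the core letters that HIF1 is known to bind, on either strand, so that a match on the other strand appears as CACGT or CACGC.
Slc2a1 promoter (chr4:119108495-119108794, plus strand): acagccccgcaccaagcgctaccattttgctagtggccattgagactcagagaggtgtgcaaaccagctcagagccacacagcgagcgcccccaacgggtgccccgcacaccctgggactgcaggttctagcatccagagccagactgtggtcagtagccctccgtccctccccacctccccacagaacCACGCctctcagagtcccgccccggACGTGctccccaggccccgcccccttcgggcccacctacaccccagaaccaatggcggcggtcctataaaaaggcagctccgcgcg
Pfkp promoter (chr13:6648722-6649021, minus strand): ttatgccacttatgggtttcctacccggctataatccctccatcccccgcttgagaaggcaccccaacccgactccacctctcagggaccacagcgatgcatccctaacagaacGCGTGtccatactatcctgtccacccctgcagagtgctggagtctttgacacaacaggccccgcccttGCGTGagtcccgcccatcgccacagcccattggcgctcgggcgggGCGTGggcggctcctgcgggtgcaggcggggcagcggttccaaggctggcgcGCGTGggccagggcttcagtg
Gapdh promoter (chr6:125165724-125166023, minus strand): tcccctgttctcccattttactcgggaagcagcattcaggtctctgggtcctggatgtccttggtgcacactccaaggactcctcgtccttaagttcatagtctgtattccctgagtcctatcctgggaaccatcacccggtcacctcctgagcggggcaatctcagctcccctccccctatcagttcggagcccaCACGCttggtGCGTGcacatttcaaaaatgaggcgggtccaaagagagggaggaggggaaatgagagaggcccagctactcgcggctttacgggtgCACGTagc
Pgk1 promoter (chrX:106186850-106187149, plus strand): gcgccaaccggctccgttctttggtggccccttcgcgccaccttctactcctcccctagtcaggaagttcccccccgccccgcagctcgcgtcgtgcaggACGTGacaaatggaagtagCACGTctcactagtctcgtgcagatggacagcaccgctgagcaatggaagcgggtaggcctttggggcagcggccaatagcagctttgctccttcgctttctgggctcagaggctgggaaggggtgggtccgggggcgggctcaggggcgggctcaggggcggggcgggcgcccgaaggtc
Ldha promoter (chr7:46845554-46845853, plus strand): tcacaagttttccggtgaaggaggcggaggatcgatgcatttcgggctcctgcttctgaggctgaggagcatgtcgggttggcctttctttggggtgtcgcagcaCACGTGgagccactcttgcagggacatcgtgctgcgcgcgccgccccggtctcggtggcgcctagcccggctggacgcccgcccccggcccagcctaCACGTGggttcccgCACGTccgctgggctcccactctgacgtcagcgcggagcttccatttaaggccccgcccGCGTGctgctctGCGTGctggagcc
The Slc2a1, Pfkp and Pgk1 windows overlap the annotated 5′ ends of their genes, while the Gapdh and Ldha windows lie inside the span that the GENCODE annotation gives these genes, at a start downstream of their longest transcripts. Marked matches numbered 2 in the Slc2a1 window, 4 in Pfkp, 3 in Gapdh, 2 in Pgk1 and 7 in Ldha. The Ldha window also held CACGTG 2 times, an E-box that MYC can bind, and each copy contains ACGTG on both strands and so counts as 2 of its 7 matches. Each of the 10 genes had at least 1 window with ACGTG or GCGTG, in 14 of their 17 windows, against 46.7% of the 27025 genes and 43.8% of the 32851 windows in the RefSeq table. Windows of the same gene can overlap, as for Aldoa and Eno1, so a match can count in more than 1 window. A gene with several windows also has more chances of a match. Taken apart, ACGTG was found for 8 of the 10 genes against 21.8% of all genes, GCGTG for 6 against 35.2%, and CACGTG for 1 against 8.09%. The GC-box letters GGGCGG, a motif of Sp-family factors, occurred for 8 of the 10 against 38.2% of all genes. These are matches of letters on either strand and not sites of binding, and genes that stood higher and genes that stood lower in neurosphere cells both carried them.

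As a group the 10 genes were lower in neurosphere cells. Their pooled level, in UMIs per 1000000 UMIs on the genes left (CPM), was 8926 for the adherent and 4359 for the neurosphere library, a log2 ratio of neurosphere over adherent of -1.03 (interval -1.04 to -1.03), or 2.05-fold lower. Of the 10, 5 were over 2-fold lower (Pfkp, Gapdh, Ldha, Aldoa and Pkm), and 0 were over 2-fold higher. Of the 14653 genes that reached 50 UMIs in the libraries together, 11.7% were over 2-fold lower and 21.7% over 2-fold higher. The median log2 ratio of the 10 was -0.95, while that of all those genes was 0.32. Among the 1106 genes with at least 20000 UMIs, nearer to the more abundant of the 10, the median was -0.08 and 11.4% were over 2-fold lower. Gapdh weighed most in the sum, which without it had a log2 ratio of -0.51, and without Pgk1 the ratio was -1.36. The plot of levels in both cultures shows the 10 genes in pathway order.

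**Figure D1:**
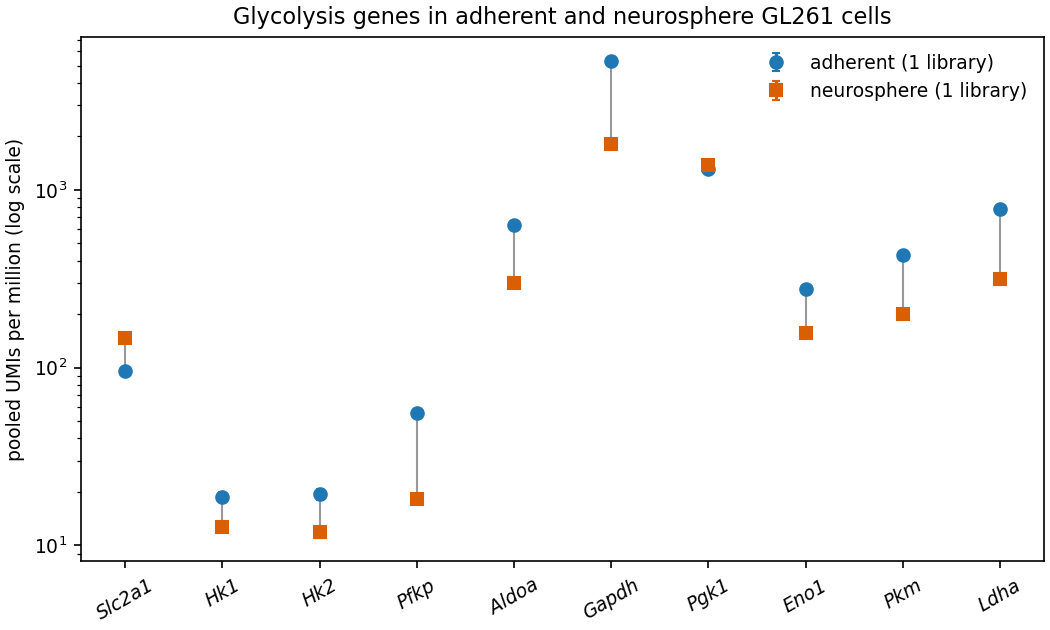
Pooled level of each of the 10 genes in UMIs per 1000000 (log axis) in the adherent (blue circles) and neurosphere (orange squares) library, 1 library each, with exact 95% counting intervals that are mostly smaller than the symbols. Slc2a1 sits higher in the neurosphere library, Pgk1 is nearly level (its direction turns under TMM scaling), and the other 8 genes sit lower, with the widest gaps for Pfkp (55.8 against 18.4) and Gapdh (5310 against 1812).

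The size of these differences moves with the scaling, and the libraries differ in the share of ribosomal UMIs. When the total kept its mitochondrial and ribosomal UMIs, the median over all genes was 0.54, and with edgeR's TMM factors it was 0.11, against 0.32 here. The sum of the 10 had log2 ratios of -0.81 and -1.25 under these scalings, and 3 genes (Pfkp, Gapdh and Ldha) and 6 genes (those 5 and Eno1) were over 2-fold lower. Pgk1 was the only member whose direction depended on the scaling, at 0.30 and -0.13. Each scaling shifts all genes by the same amount, so the position of a member relative to the median of all genes cannot change between them. The 8 lower genes and Pgk1 lay below that median, and Slc2a1 lay above it.

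Glucose uptake was the one step with a higher member. Slc2a1 (ENSMUSG00000028645), which encodes the glucose transporter GLUT1, stood at 95.5 CPM in the adherent library and 146 CPM in the neurosphere library. That is 1.53-fold higher in neurosphere cells, a log2 ratio of 0.61 (0.56 to 0.67). The share of cells with a UMI of it was 49.1% (adherent) and 63.0% (neurosphere), but 35.0% and 37.9% once every cell was thinned to 5000 UMIs, a narrower gap at equal depth. Slc2a3, the gene of the high-affinity transporter GLUT3, was at 64.6 and 3.45 CPM, a log2 ratio of -4.23. Slc2a1 thus held 53.2% of the UMIs of the 8 Slc2a genes counted in adherent cells (52.1 to 54.2) and 85.3% in neurosphere cells (84.7 to 86.0), while Slc2a3 held 36.0% and 2.01%. The minor transporter genes Slc2a6, Slc2a8, Slc2a10 and Slc2a12 had log2 ratios between -0.34 and 0.24.

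The hexokinases, which phosphorylate glucose and keep it in the cell, were sparse in both cultures. Hk1 (ENSMUSG00000037012), the broadly expressed enzyme, was at 18.8 and 12.7 CPM, with a log2 ratio of -0.56 (-0.70 to -0.42). Hk2 (ENSMUSG00000000628), the inducible enzyme often raised in tumours, was at 19.4 and 11.9 CPM, with a log2 ratio of -0.70 (-0.84 to -0.56). Neither reached a 2-fold difference. At 5000 UMIs per cell, 9.23% of adherent and 6.27% of neurosphere cells had an Hk1 UMI, and 8.58% and 4.77% had one of Hk2. In the pooled counts Hk2 held 49.8% (47.4 to 52.1) of hexokinase UMIs in adherent and 47.3% (44.8 to 49.7) in neurosphere cells, with intervals that overlap. With cells thinned to 5000 UMIs these shares were 48.0% and 41.3%. Hk1 overlaps Hk1os on the other strand, which had 394 and 323 UMIs of its own, and whether the counting used strand is not stated in the sources used here. The same limit holds for Slc2a1, Hk2, Pfkp, Aldoa and Gapdh, which also overlap counted genes on the other strand (Pitrm1 for Pfkp). Adpgk, an ADP-dependent glucokinase, was at 17.8 and 43.3 CPM (log2 ratio 1.28).

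Phosphofructokinase makes the committed step, and here the isozymes parted. Pfkp (ENSMUSG00000021196), the platelet-type subunit, had 55.8 CPM in the adherent against 18.4 CPM in the neurosphere library. This 3.04-fold lower level, a log2 ratio of -1.61 (-1.71 to -1.51), was the largest difference among the 10. The liver-type Pfkl had a log2 ratio of 0.52 (0.43 to 0.61) and the muscle-type Pfkm one of 0.47 (0.35 to 0.58), both on the higher side. Pfkp therefore went from 52.5% of phosphofructokinase UMIs (51.1 to 53.9) in the adherent to 20.5% (19.4 to 21.5) in the neurosphere library, and Pfkl from 29.1% to 49.4%. At 5000 UMIs per cell, 23.6% of adherent cells and 7.32% of neurosphere cells held a Pfkp UMI.

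Aldolase splits the sugar and triose phosphate isomerase interconverts the products. Aldoa (ENSMUSG00000030695, with 45 and 6 UMIs from the row ENSMUSG00000114515 added) was at 637 and 299 CPM, 2.13-fold lower in neurosphere cells with a log2 ratio of -1.09 (-1.12 to -1.07). The brain-type Aldoc was at 11.3 and 17.1 CPM with a log2 ratio of 0.59, and its share of aldolase UMIs was 1.75% and 5.42%. Aldoa remained the major aldolase in both cultures, at 98.3% and 94.6%. Tpi1, the next enzyme and not one of the 10, was at 603 and 280 CPM, with a log2 ratio of -1.11 (-1.13 to -1.08) close to that of Aldoa.

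Gapdh (ENSMUSG00000057666), the NAD-dependent glyceraldehyde phosphate dehydrogenase, was the most abundant of the 10 in UMIs in both cultures. Its level was 5310 CPM in the adherent and 1812 CPM in the neurosphere library, 2.93-fold lower with a log2 ratio of -1.55 (-1.56 to -1.54). It was found in 99.8% and 99.2% of cells, so the difference lay in the amount per cell. Within the last 400 bases of its transcript, 84.5% of 60-base windows also occur in other annotated genes, 96 of them, of which only Gm10358 (1 and 0 UMIs) and Gm3839 (19 and 10 UMIs) are in the count table. Reads shared with such copies could have been dropped, so the level of Gapdh is uncertain.

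Pgk1 (ENSMUSG00000062070), phosphoglycerate kinase, makes the first ATP of the pathway in the step right after Gapdh, and it was nearly level. Its values were 1306 CPM (adherent) and 1385 CPM (neurosphere), a log2 ratio of 0.08 (0.07 to 0.10) that turned to -0.13 under TMM scaling. Gapdh UMIs per Pgk1 UMI numbered 4.07 in adherent and 1.31 in neurosphere cells. Of the UMIs of the 10 genes, Gapdh held 59.5% (59.3 to 59.6) in adherent and 41.6% (41.4 to 41.7) in neurosphere cells, and Pgk1 held 14.6% (14.5 to 14.7) and 31.8% (31.6 to 31.9). Pgam1, the phosphoglycerate mutase that acts next, had a log2 ratio of 0.06 (0.03 to 0.09), and the ratio of Pgk1 to Pgam1 UMIs was 3.25 and 3.31. Bpgm, bisphosphoglycerate mutase, which diverts an intermediate around the Pgk1 step, was at 75.1 and 903 CPM, a log2 ratio of 3.59 (3.54 to 3.64) and the largest positive value among the glycolysis genes examined. Its UMIs per Pgam1 UMI were 0.187 in adherent and 2.16 in neurosphere cells.

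Enolase makes phosphoenolpyruvate. Eno1 (ENSMUSG00000063524), the ubiquitous form, was at 276 and 157 CPM, 1.76-fold lower in neurosphere cells with a log2 ratio of -0.82 (-0.85 to -0.78). The muscle-type Eno3 lay on the other side, with a log2 ratio of 0.81 (0.75 to 0.87), and the neuron-type Eno2 was lower and sparse, with 314 and 207 UMIs. Of enolase UMIs, Eno1 made up 76.8% (76.1 to 77.4) in the adherent and 54.5% (53.8 to 55.2) in the neurosphere library, while Eno3 made up 19.8% and 43.2%. Eno1 shares 80.4% of the windows at its transcript end with Eno1b, which had 262 and 221 UMIs. Reads shared by this pair could have been dropped. The level of Eno1, its split from Eno1b and its share beside Eno3 are therefore uncertain.

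Pyruvate kinase and lactate dehydrogenase close the pathway. Pkm (ENSMUSG00000032294), whose counts do not tell its splice forms apart, was at 427 and 201 CPM, 2.12-fold lower in neurosphere cells with a log2 ratio of -1.09 (-1.12 to -1.05). Ldha (ENSMUSG00000063229), the subunit that favours lactate formation, was at 780 and 317 CPM, 2.46-fold lower with a log2 ratio of -1.30 (-1.33 to -1.28). Ldhb, the other main subunit, had a log2 ratio of -0.34 (-0.40 to -0.29), so Ldha went from 85.9% (85.6 to 86.2) to 75.8% (75.3 to 76.4) of lactate dehydrogenase UMIs. At 5000 UMIs per cell, 3.99% of adherent and 35.3% of neurosphere cells had no Ldha UMI. The plot of ratios by step sets the members beside the other genes of the same reactions.

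**Figure D2:**
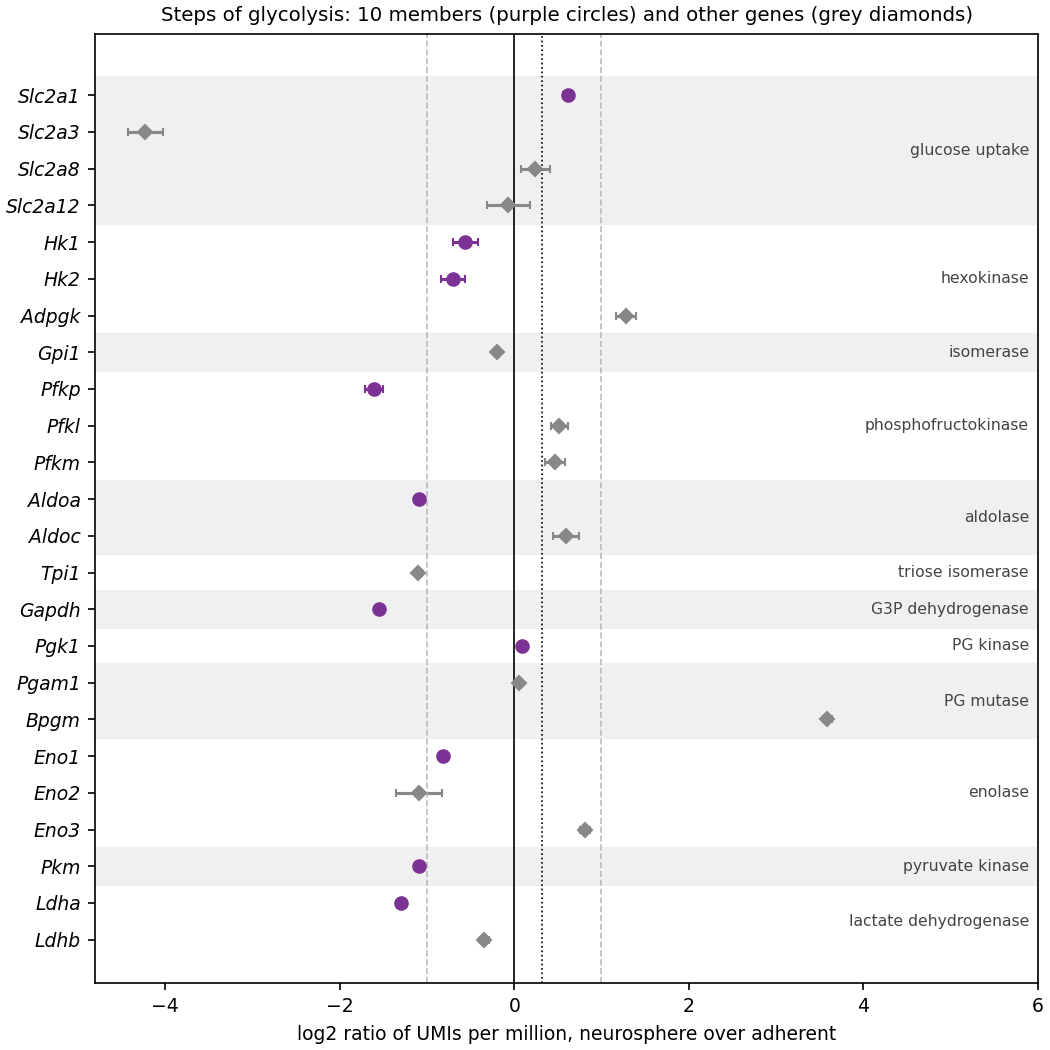
Log2 ratio of UMIs per 1000000, neurosphere over adherent (1 library each), with exact 95% counting intervals, for the 10 genes (purple circles) and other genes of the same steps (grey diamonds). The dotted line is the median of all genes (0.32) and dashed lines mark 2-fold. Pfkp lies at -1.61 with Pfkl and Pfkm on the positive side, and Eno1 and Eno3 lie on opposite sides. Pgk1 (0.08) and Pgam1 (0.06) lie near 0, between the rows of Gapdh (-1.55) and Bpgm (3.59).

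The counts in this paragraph and the next stand beside 21.7% of all genes over 2-fold higher, 11.7% over 2-fold lower and an all-gene median of 0.32. Of the 29 other genes of uptake and glycolysis listed, 19 had at least 50 UMIs, with a median log2 ratio of 0.06. Among these, 2 were over 2-fold higher (Bpgm and Adpgk) and 3 over 2-fold lower (Slc2a3, Tpi1 and Eno2). Among 20 measured genes of lactate and pyruvate handling the median was 0.16, with 4 higher and 1 lower. They included Pdp1 (2.55), which activates pyruvate dehydrogenase, Pdk2 (2.01), which inhibits it, and the lactate transporters Slc16a7 (1.59) and Slc16a3 (-1.62). Among 21 regulators 4 were higher and 3 lower, with a median of 0.27. Hif1a, the oxygen-regulated HIF1 subunit, was at 36.9 and 167 CPM (2.18), Egln3, a hydroxylase of that subunit, was at 1.36 and 4.62 CPM (1.76), and Pfkfb4 (-3.24) and Pck2 (-2.57) were lower. The 17 genes of the tricarboxylic acid cycle had a median of -0.05 with 0 past 2-fold in either direction, with Sdhb (-0.92) and Idh3g (-0.84) on the lower and Sdha (0.69) on the higher side. Of 18 hypoxia-induced genes outside glycolysis, 3 were higher and 0 lower, with a median of 0.15. Adm (4.07, from 6 and 141 UMIs), Ankrd37 (1.41) and Kdm3a (1.09) were the higher ones, while Higd1a, at 326 and 163 CPM, lay just inside 2-fold on the lower side. None of the lists in this paragraph had a share of higher genes above that of all genes, and each list median lay below the all-gene median.

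Side routes from glycolysis had members on either side. In the pentose phosphate pathway, 3 of 12 genes were over 2-fold lower, namely G6pdx (-1.64), the entry enzyme, Taldo1 (-1.47), from 820 to 295 CPM, and H6pd, from 6.14 to 3.06 CPM, and 1 was higher, Rpia (1.07). In the serine and glycerol branches, 2 of 8 were lower, namely Phgdh (-1.86), the first enzyme of serine synthesis, from 580 to 159 CPM, and Psph (-1.28). In glycogen metabolism 2 of 9 were higher, a share near that of all genes. They were the branching enzyme Gbe1 (2.69) and Pygl (4.28), the latter from 6 UMIs in adherent cells. The values in these 2 paragraphs are log2 ratios of CPM, neurosphere over adherent.

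Cell by cell, most neurosphere cells lay below most adherent cells in the summed UMIs of the 10 genes, and Gapdh carried much of this separation. With every cell thinned to 5000 UMIs, which left 4464 adherent and 4196 neurosphere cells (587 and 80 shallower ones left out), the 10 genes together had a median of 42 UMIs per adherent cell (5th to 95th percentile 26 to 67) and 19 per neurosphere cell (7 to 39). Of the neurosphere cells, 74.0% lay under the 5th percentile of adherent cells and 96.4% under the adherent median. Only 0.672% of adherent cells lay under the neurosphere median. For the other 9 genes without Gapdh, whose level is uncertain, the medians were 18 (10 to 28) and 12 (4 to 22) UMIs, and 34.5% of neurosphere cells lay under the 5th percentile and 83.9% under the median of adherent cells. Gapdh averaged 25.8 UMIs per adherent cell and 8.27 per neurosphere cell, Pgk1 6.50 and 6.96, Aldoa 3.17 and 1.37, and Ldha 3.86 and 1.40. Cells are not replicates, and these shares describe the 2 libraries.

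**Figure D3:**
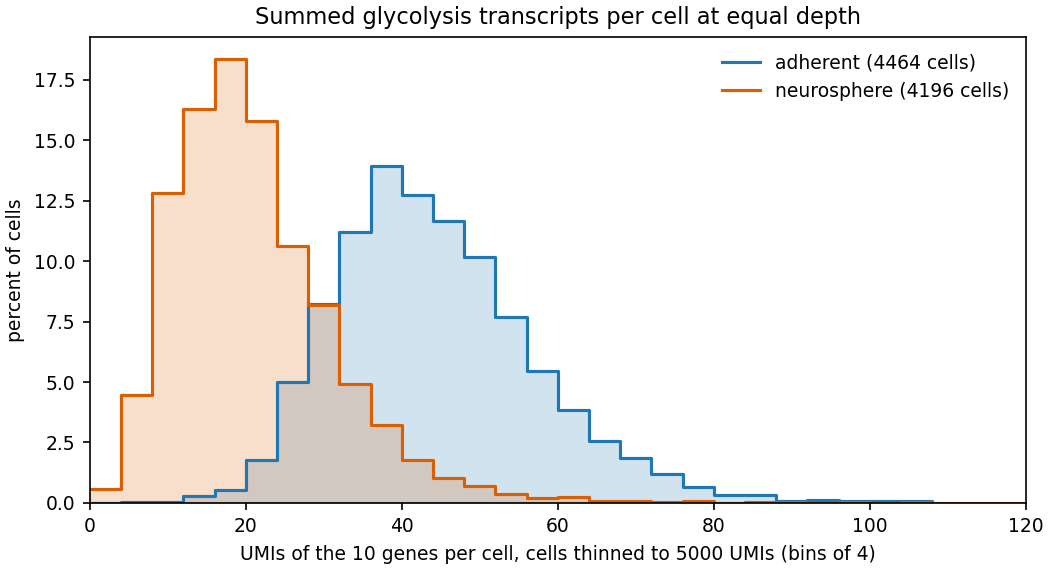
Percent of cells (vertical axis) by the summed UMIs of the 10 genes per cell after thinning each cell to 5000 UMIs (horizontal axis, bins of 4), for 4464 adherent and 4196 neurosphere cells of 1 library each. The neurosphere distribution is centred at a median of 19 and the adherent one at 42, with an overlap in the range of about 20 to 40 UMIs. The horizontal axis ends at 120, beyond the highest adherent cell (111), and the neurosphere maximum of 164 is not drawn.

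Neurosphere cells varied more around their lower mean. The variance of the sum was 5.43 times its mean in neurosphere cells and 3.78 times in adherent cells, where counting noise alone gives about 1, and the squared coefficient of variation beyond counting noise was 0.215 and 0.0635. Without Gapdh this coefficient was 0.161 and 0.0434. The same quantity was 0.437 and 0.113 for Gapdh, 0.719 and 0.136 for Ldha, 0.524 and 0.104 for Aldoa, and 2.93 and 1.02 for Slc2a1. Slc2a1 was the most uneven of the better-measured genes, with up to 35 UMIs in 1 thinned neurosphere cell and none in 62.1% of them. Hk1, Hk2 and Pfkp averaged under 0.3 UMIs per thinned cell, too few to describe their spread. Cells with more UMIs had more of the 10 even after thinning, from 16.3 in the shallowest of 5 equal bins of neurosphere cells to 24.1 in the deepest, and from 40.9 to 48.2 in adherent cells. Gapdh alone went from 5.38 to 10.7 and from 23.2 to 29.8 over these bins. Over the same neurosphere bins the mean mitochondrial percentage went from 5.14 to 3.40, and the part of depth and cell state in this gradient was not tested. Each of the 5 neurosphere bins stayed below each adherent bin.

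The genes also varied together more in neurosphere cells. Over the 45 pairs of genes, Pearson's r across thinned cells had a median of 0.0152 in adherent and 0.0853 in neurosphere cells, and 7 and 20 pairs were above 0.1. With cells thinned to 3000 UMIs the medians were 0.00881 and 0.0596, and 4 and 13 pairs were above 0.1. The highest values in both cultures were those of Gapdh with Ldha (0.239 and 0.418) and of Gapdh with Aldoa (0.218 and 0.381). Aldoa with Ldha was at 0.131 and 0.325. Slc2a1 with Aldoa was at 0.0122 and 0.236, and Slc2a1 with Ldha at 0.00102 and 0.204. Pgk1 with Gapdh was at 0.146 and 0.248. Hk1 and Hk2 were near 0 with all others. The points of each correlation are cells of 1 library, and sparse counts pull r towards 0.

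**Figure D4:**
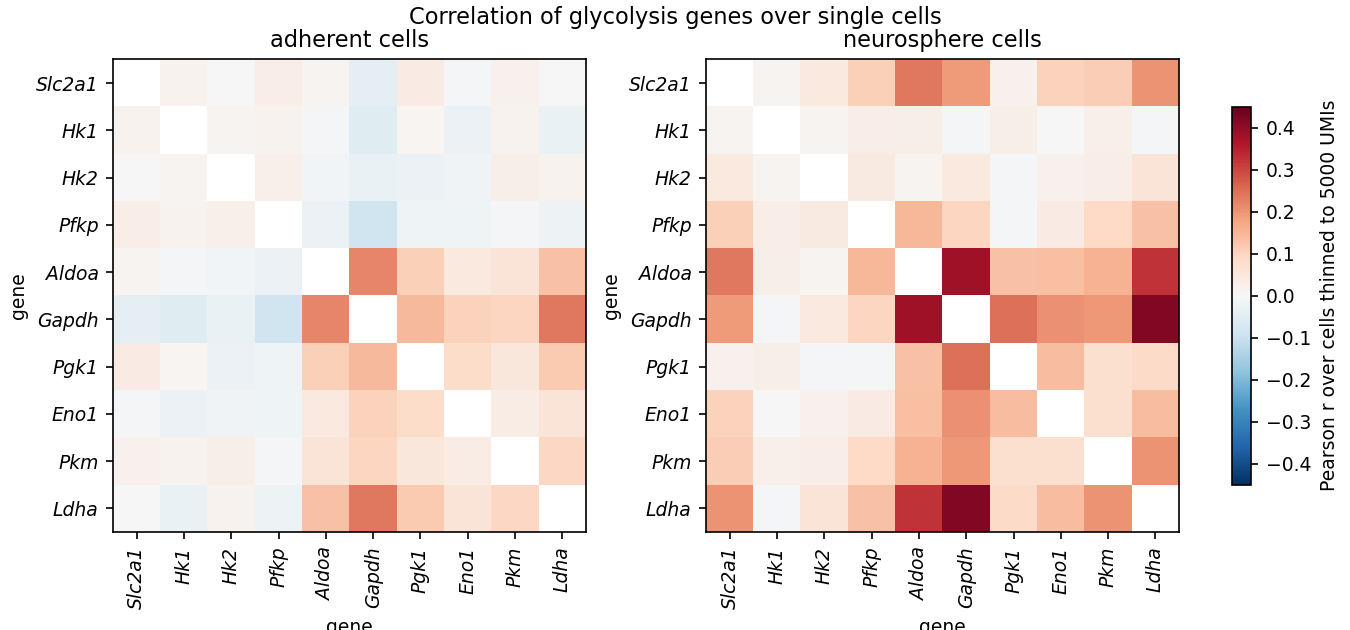
Pearson's r between each pair of the 10 genes (both axes) over single cells thinned to 5000 UMIs, for adherent cells (left, 4464 cells) and neurosphere cells (right, 4196 cells), with red for positive and blue for negative values and the diagonal left blank. Gapdh with Ldha is the darkest cell in both panels (0.239 and 0.418), followed by Gapdh with Aldoa, and Slc2a1 with Aldoa is near 0 on the left (0.0122) and at 0.236 on the right.

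The sum of the 10 had weak positive r with several metabolic lists. With the list of other glycolysis genes r was 0.241 in adherent and 0.225 in neurosphere cells. It was 0.164 and 0.235 with lactate and pyruvate handling, and 0.150 and 0.194 with the pentose phosphate pathway. With the serine and glycerol branches it was 0.0784 and 0.209, and with the tricarboxylic acid cycle list 0.189 and 0.323. The regulators (-0.0355 and -0.0434) and glycogen metabolism (-0.1 and -0.0731) lay below 0. For Tpi1 alone r was 0.230 and 0.403, and for the hypoxia list it was 0.0611 and 0.217. With Hif1a it was -0.0516 and -0.153, and with Bpgm -0.00507 and -0.155, and both genes stood higher in the neurosphere library. The S phase and G2/M lists gave values between -0.0602 and 0.0883. The mitochondrial percentage gave -0.218 and -0.226, and total UMIs per cell 0.235 and 0.227. Several of these values rested on Gapdh. For the 9 genes without it, r was 0.0401 and 0.119 with total UMIs, -0.110 and -0.148 with the mitochondrial percentage, -0.0303 and -0.0861 with Hif1a and 0.0146 and -0.0761 with Bpgm. With the tricarboxylic acid cycle list it fell to 0.145 and 0.225. It was less altered with Tpi1 (0.218 and 0.353) and the hypoxia list (0.0675 and 0.238), and the S phase and G2/M lists lay between -0.0943 and 0.0347.

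Of 5268 genes with a UMI in at least 10% of thinned cells of both libraries, the 10 most like the sum were, by mean r over the libraries, Ppia (0.410 and 0.454), Lgals1, Mif, Nme2, Psmb3, Tpi1, Eif5a, Rbm3, Slc25a3 and Fau (0.234 and 0.309). Tpi1 is the one other glycolytic enzyme among them. Between cultures their levels differed in pattern, with Ppia at 7710 and 7625 CPM and Lgals1 at 10660 and 2752 CPM. The 5 least like the sum were Malat1 (-0.355 and -0.300), a nuclear long noncoding RNA, then Col11a1, Nkain2, Sox6 and Tcf4. Gapdh, whose level is uncertain, held 59.5% (adherent) and 41.6% (neurosphere) of the UMIs in this sum. With Gapdh left out of the sum, r was -0.193 and -0.222 for Malat1. For Tpi1 it went from 0.230 and 0.403 to 0.218 and 0.353. A ranking without Gapdh is not given here. Sparse counts weaken r, so the ranking favours abundant genes.

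Clusters were made in each library without the 10 genes among the variable genes, giving 11 in adherent and 10 in neurosphere cells, and are described by number and leading genes only. Adherent cluster 10, with 45 cells, a median of 2647 UMIs and 12.4% mitochondrial UMIs, led by Lars2 and Pcdh9, stood apart at 2686 CPM of the 10 genes. Without it, the sum ranged from 7833 to 11473 CPM over the other 10 adherent clusters and from 3190 to 5711 CPM over the 10 neurosphere clusters, so no clusters of the cultures overlapped. With it included, 10 of 11 adherent clusters lay above all neurosphere clusters. Under the same exclusion, chosen after the values were seen, Pfkp, Aldoa, Gapdh, Eno1, Pkm and Ldha each had all 10 neurosphere clusters below all 10 adherent ones, and Slc2a1, Hk1, Hk2 and Pgk1 did not. At the lower clustering resolution of 0.8 the spread between the highest and lowest neurosphere cluster was 1.76-fold, against 1.79-fold, and that between adherent clusters, with the smallest one included, was 3.22-fold, against 4.27-fold.

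Within the adherent library, cluster 4, led by Ube2c and H2afx, had the highest sum (11473 CPM, with Gapdh at 7530), followed by cluster 8, led by Ubtd1 and with Phlda2 among its leading genes (10939 CPM). These 2 clusters also had the highest Gapdh per Pgk1 UMI, 5.34 and 4.71, where the others lay between 1.92 and 4.27. Other proliferation-led adherent clusters were not high, as cluster 6, led by Aspm and Cenpe and with the highest G2/M level, had the lowest sum of the 10 larger clusters (7833 CPM). Among neurosphere clusters the sum was highest in cluster 8, led by Cela1 and Lgals1 (5711 CPM), and cluster 6, led by Prss56 and Fosl1 (5368 CPM). It was lowest in cluster 4, led by Enpp2 and the myelin gene Mbp (3190 CPM), cluster 1, led by Comp (3196 CPM), and cluster 0, led by Depdc1b and Aspm (3267 CPM). Neurosphere clusters 8 and 6 were also the deepest, at medians of 20740 and 20779 UMIs per cell. Clusters 1 and 4 were the shallowest (7705 and 8166.5), but cluster 0 had 15737. Adherent cluster 4 was the deepest adherent cluster (13070), while adherent cluster 8 had 7149. Cluster levels were not thinned, and the part of depth in them was not tested.

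Slc2a1 had the widest range among neurosphere clusters. It was at 336 CPM in cluster 7, led by Chit1, Ifit3 and Cryab, at 265 CPM in cluster 6 and at 230 CPM in cluster 9, led by Cox6a2 and Nupr1, against 60.3 and 60.2 CPM in clusters 0 and 4. Clusters 6 and 7 also had the highest Aldoa (443 and 438 CPM), and cluster 9 and cluster 6 the highest Pfkp (34.2 and 31.7 CPM). Bpgm lay at 490 CPM in cluster 6 and 596 CPM in cluster 7 and reached 1284 CPM in cluster 4, where the sum of the 10 was lowest. Pgk1 was the flattest, between 1079 and 1641 CPM over the neurosphere clusters and between 1195 and 1429 CPM over the 10 larger adherent ones. Genes and cells of a cluster come from the same data, so these values are descriptions of where each library was high or low.

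**Figure D5:**
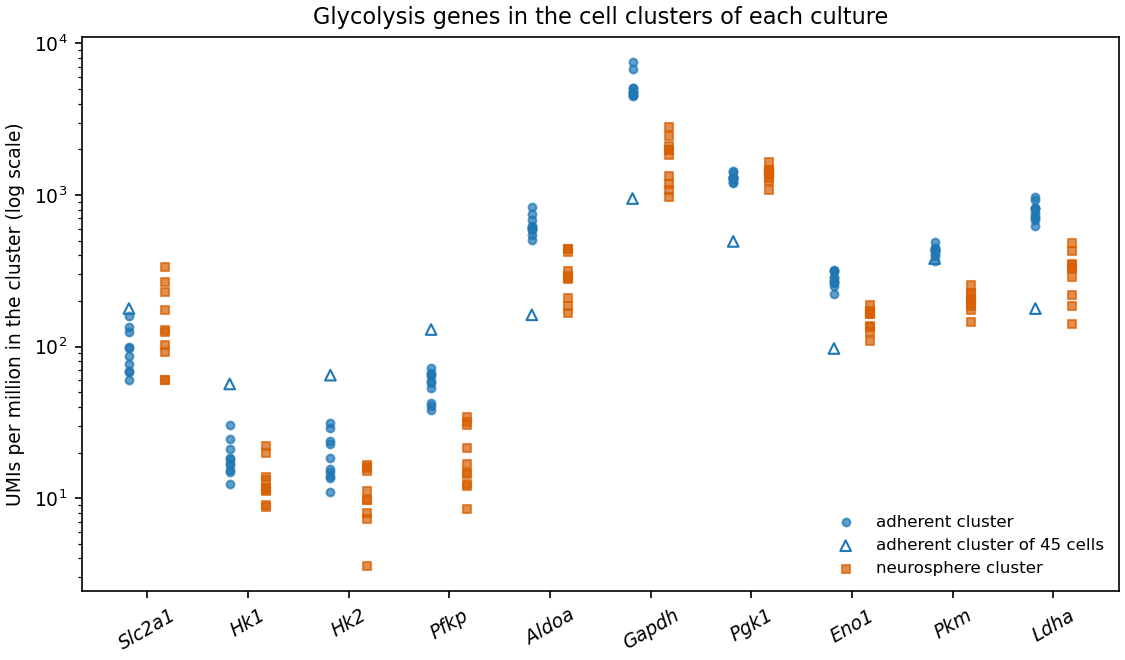
Level of each of the 10 genes in UMIs per 1000000 (log axis) in every cluster of adherent (blue) and neurosphere (orange) cells, with the adherent cluster of 45 cells as an open triangle. Apart from that cluster, all neurosphere clusters lie below all adherent ones for Pfkp, Aldoa, Gapdh, Eno1, Pkm and Ldha, while Pgk1 overlaps and Slc2a1 spreads from 60.2 to 336 among neurosphere clusters.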

How the data were processed

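The authors deposited raw UMI counts per gene and cell for 1 adherent and 1 neurosphere library, as Cell Ranger 7.0.1 wrote them for called cells (5764 and 4951). The submitters' processing notes name Cell Ranger 7.0.1 and mm10. The gene annotation, intron setting and strand setting are not given in the sources used here. Following the study's methods, 13 mitochondrial and 101 ribosomal genes were removed, then cells with under 1000 UMIs or under 1250 (adherent) or 2250 (neurosphere) genes, leaving 5051 and 4276 cells. The methods name the steps in this order, but the kept cell numbers that the study states, 5073 and 4300, come out when cells are filtered before genes are removed, which was run as an added alternative. Doublets were not called, and leaving out cells over the 95th percentile of UMIs was an alternative.

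UMIs were summed over cells and divided by the library total (CPM). Intervals are exact conditional (ratios) or Clopper-Pearson (shares) at 95%. On simulated counts for this comparison (32171 genes, 200 changed), the interval held the true ratio for 98% of the changed genes. These counts carried only the counting noise that the interval assumes. The simulation therefore checks the calculation and says nothing of spread between cells or libraries. Per-cell values used cells thinned to 5000 UMIs. Clusters were made with Seurat 5.3.0 (2000 variable genes without the 10, resolution 1.0). TMM factors came from edgeR 4.0.16. Python 3.11.15 and R 4.3.3 were used. Gene positions come from GENCODE M21 and promoters from RefSeq.

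The 10 genes and all lists were chosen with earlier results of these data known. The text names all 10, isozymes of their steps with at least 50 UMIs, up to 4 genes per other list by absolute log2 ratio, the 10 genes most and 5 least correlated with the sum, and near-identical copies. Genes named outside this rule, among them pathway neighbours of a step and those leading clusters, were named after their values were seen. Levels are 3′ UMIs and are not divided by length, and capture differs between genes, so each gene was compared between cultures. No cells that lack glycolysis were available to measure free RNA. Some genes that the naming rule picks are not reported here.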

Additional observations from a re-analysis of the deposited data

Results flagged for a closer look

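The barcodes that the cell filter left out also carried the 10 genes. In the adherent library 713 such barcodes, with a median of 48.8% mitochondrial UMIs, held 2077 UMIs of the 10, or 5298 CPM of their UMIs on the genes left. In the neurosphere library 675 such barcodes, with a median of 87.0% mitochondrial UMIs, held 1844 UMIs, or 3209 CPM. Both values lie below those of the kept cells (8926 and 4359 CPM), and the adherent one is again the higher. No control sample without cells was analysed, and the source of these UMIs was not tested.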

How the results depend on the processing

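No paired analysis was possible because each culture is 1 library. Over 9 alternatives, the log2 ratios of the 10 genes gave 90 values, of which 89 kept their direction, and the exception was Pgk1 at -0.13 under TMM scaling. The sum of the 10 (-1.03) was -0.81 when mitochondrial and ribosomal UMIs stayed in the total, -1.25 under TMM, -1.04 with the neurosphere gene minimum used for both libraries, -1.02 without cells over the 95th percentile of UMIs, -1.09 with cells thinned to 5000 UMIs and -1.07 as a mean over cells. The median of the 10 (-0.95) was -0.73, -1.17, -1.02 with thinned cells, -1.03 as a mean over cells and -0.85 with the trend on gene length removed, which was not run for the sum. The number over 2-fold lower (5) was 3 when those UMIs stayed in, 6 under TMM and 4 with the trend on gene length removed. Alternatives added after the data were seen left out each gene in turn, which put the sum at -0.51 without Gapdh, -1.36 without Pgk1, -1.07 without Slc2a1 and -1.01 without Ldha, and the median at -1.09 or -0.82. The shift of the scalings follows from their construction, and the cause of the other shifts was not tested. Keeping only cells under 10% mitochondrial UMIs, all called cells, or, as an added alternative, the cells kept when the cell filter comes before gene removal, moved none of the sum, the median and the counts past counting error. The limit on every value is 1 library per culture, which no depth repairs, and Hk1 and Hk2, under 1000 UMIs per culture, are the least precise of the 10.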

Other observations

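The values of gene lists outside glucose metabolism are log2 ratios of CPM, neurosphere over adherent, and over all genes 21.7% lay past 2-fold on the higher side and 11.7% on the lower side. Of the 10 integrated stress response genes, 6 were over 2-fold lower and 0 higher (median -1.11), led by the stress regulator Nupr1 (-4.09), the transcription factor Ddit3 (-2.92), the cystine transporter Slc7a11 (-2.35) and asparagine synthetase, Asns (-1.40). Of 20 S phase genes, 5 were higher, a share near that of all genes, and 0 lower (median 0.64), led by the replication helicase gene Mcm2 (1.93), the cyclin Ccne2 (1.82), the histone mRNA binder Slbp (1.59) and the licensing factor Cdc6 (1.13). The 20 G2/M genes had a median of -0.13 with 0 past 2-fold, from Tpx2 (-0.63) and Cenpf (-0.59) to Cdc20 (0.61) and Kif11 (0.92).

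Immediate early and dissociation genes went in both directions, with 6 of 13 over 2-fold higher and 3 lower. Btg2 (2.53), Nr4a1 (2.00) and Egr1 (1.89) were higher and Ier3 (-2.51) was lower. The neurospheres were broken up by pipetting and the adherent cells were not, and the part of handling in these values was not tested. Endothelial markers summed to 1.47 and 3.79 CPM, neuronal ones to 6.80 and 18.7 CPM, nearly all of it Syt1 (6.61 and 18.5 CPM), and erythroid ones to 3.26 and 0.354 CPM.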
